A study of Homo sapiens with 9 samples.

Results

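The imprinted noncoding RNA *H19*, the growth factor *IGF2*, the receptors *IGF1R*, *IGF2R* and *INSR*, the mRNA-binding proteins *IGF2BP1*, *IGF2BP2* and *IGF2BP3*, and the secreted binding proteins *IGFBP3* and *IGFBP4* were followed through 9 RNA-seq libraries of A549 cells, a human lung adenocarcinoma line. These 10 genes were chosen by symbol, and each was found in the table of 26364 genes. The 2 control libraries came from A549 cells labelled WT. The 2 *LA* libraries came from A549 cells edited with sgLOC388942 and sgALK to carry the intergenic *LOC388942-ALK* (*LA*) fusion. A further 3 libraries came from *LA* cells that also carried the scramble guide sgScr, and 2 from *LA* cells that also carried sg*FOS*, without the labels saying which *FOS* guide. By the study's methods, the fusion was made in Cas9-expressing A549 cells and the fusion cells were grown from single cells, so that the *LA* groups may represent 1 clone. Whether the control libraries carry Cas9 is not given in the sources used here, and nothing says that replicates were separate cultures, so that p-values measure the spread between libraries, which may be technical.

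IGF2 is a fetal growth factor that signals through IGF1R and the insulin receptor, whereas IGF2R carries it to the lysosome and does not pass on a growth signal. *H19* and *IGF2* are neighbours on 11p15.5 with opposite imprinting: in normal tissues *H19* is made from the maternal and *IGF2* from the paternal copy, under a shared control region bound by CTCF. *H19* also hosts the microRNA miR-675. The IGF2BP proteins are oncofetal RNA-binding proteins that stabilize client mRNAs, and *IGF2BP1* is a known target of the let-7 microRNAs. IGFBP3 and IGFBP4 bind IGF in the extracellular space, and the protease PAPPA releases it by cutting IGFBP4.

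The 2 mature microRNAs held in *H19* are shown because *H19* moved most among the members. Capitals mark the seed, bases 2 to 8, and both sequences are from RefSeq (GRCh38.p14, chromosome 11, minus strand, 1996800 to 1996822 for the 5p and 1996768 to 1996787 for the 3p arm).
hsa-miR-675-5p: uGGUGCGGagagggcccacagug
hsa-miR-675-3p: cUGUAUGCccucaccgcuca
The 73-base hairpin that holds them matched bases 1012 to 1084 of a 2309-base *H19* transcript. The 2 arms do not share a seed. The poly(A) libraries measured the host RNA and not the mature microRNAs.

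The 4 let-7 seed matches in *IGF2BP1* are shown because this mRNA held more of them than any other member. Each site is printed as mRNA-strand DNA from the 3' untranslated region, with the match to the let-7 seed (CTACCTC) in capitals, and the microRNA itself is from RefSeq.
hsa-let-7a-5p: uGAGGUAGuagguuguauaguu
*IGF2BP1* site 1: tgtgtgcgaagtaaaCTACCTCaa
*IGF2BP1* site 2: cagcagtgctagtaaCTACCTCac
*IGF2BP1* site 3: gtataaatggattaaCTACCTCaa
*IGF2BP1* site 4: tcacttttgttttatCTACCTCtt
*IGF1R* held 2 matches, and *IGF2R*, *INSR*, *IGF2BP2* and *IGF2BP3* held 1 each. The *H19* transcript and the untranslated regions of *IGF2*, *IGFBP3* and *IGFBP4* held 0. Of all 18645 untranslated regions searched on the same strand, 9.86% held a match and 0.193% held 3 or more. *IGF2BP1* carried 0.597 matches per kb of its 6701-base region, against 0.063 per kb over all regions. A match is a description of the sequence, not a measured site.

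The libraries held 14507228 to 20456341 counts. All 5 markers of lung carcinoma epithelium (*EPCAM*, *CDH1*, *KRT8*, *KRT18*, *KRT19*) exceeded 3 counts in every library, and the 5 endothelial markers summed to at most 1.12 CPM (counts per 1000000, scaled by TMM). Of 5 leukocyte markers 3 were at 0 in every library of each group, while *CD68* had 382 to 688 counts, and of 5 fibroblast markers 2 exceeded 3 counts in every control, sgScr and sg*FOS* library and 3 in every *LA* library. Replicates of the control and of *LA* stood far apart: the chi-square of their counts, divided by its degrees of freedom, was 125 and 58.1, whereas pairs within sgScr and sg*FOS* gave 1.74 to 2.65. Fold changes against control also followed transcript length across all genes (Spearman correlation over genes, which are not independent, 0.52 for *LA* and 0.54 for sgScr, and -0.02 for sg*FOS* against sgScr). The 2 control libraries also differed from each other by length (-0.29), whereas pairs within the other groups gave -0.03 to 0.06. For each gene named, where fitting out length and GC content ended the call or turned the direction, the value so corrected stands beside the fold change. *FOS* itself had 167 and 155 counts in the control, 5448 and 1660 in *LA*, 4198, 4037 and 3528 in sgScr, and 1008 and 1113 in sg*FOS*. *ALK*, the 3′ partner of the fusion, had 0 and 0 counts in the control, 2 and 15 in *LA*, 4, 1 and 3 in sgScr, and 2 and 0 in sg*FOS*, and the fusion in these groups is taken from their labels.

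Levels are in CPM. A gene is called, or said to have risen or fallen, where the adjusted p of the edgeR test over all genes past the expression filter was under 0.05. *IGF2* did not pass it in any comparison, which left 9 members tested in each. Between *LA* and control, *IGF1R* and *IGF2R* rose and no member fell, that is 2 of 9 higher where 9.57% of all tested genes were called higher and 9.94% lower. *H19* was the 1 member lower there at an unadjusted p under 0.05, and DESeq2 called 0 lower. Between sg*FOS* and sgScr, *H19* and *IGFBP3* fell and no member rose, 2 of 9 lower where 10.5% of all genes were called lower and 12.2% higher. There 0 members were higher at an unadjusted p under 0.05 or by DESeq2. Between sgScr and *LA*, *H19*, *IGF2BP2* and *IGFBP3* rose and *IGFBP4* fell, where 10.6% of all genes were called higher and 12.3% lower. Between sgScr and control, 6 members rose and *IGFBP4* fell, where 19.8% of all genes were called higher and 21.7% lower. With 9 members tested, a count of 2 is little to set against these shares. The comparisons share libraries, so that they are set side by side and not counted as separate evidence. Whether the libraries with and without a guide were prepared together is not given in the sources used here. Nor is it given whether *LA* cells with and without a guide were the same clone. In sgScr against *LA* or control, the guide therefore cannot be told apart from a difference in preparation or clone.

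The corrected fits called fewer members against control. For *LA* against control 1 member was then higher and 0 lower, with 5.23% of all genes higher and 7.96% lower. For sg*FOS* against sgScr 2 were lower and 0 higher (10.2% and 9.43% of all genes). For sgScr against control 4 were higher and 0 lower (18% and 21.8%), and for sgScr against *LA* 3 were higher and 0 lower (14.7% and 13.2%).

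**Figure D1:**
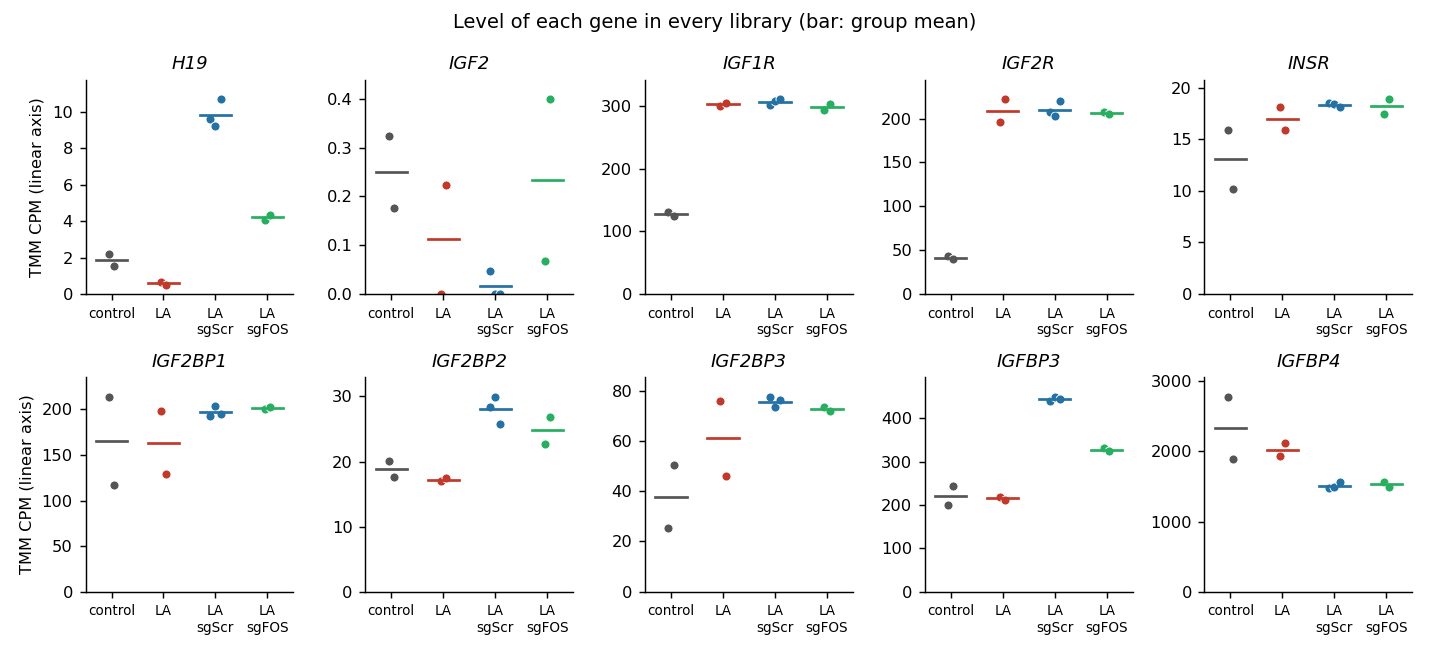
TMM CPM of each of the 10 genes (vertical axis, linear, from 0) in every library (points) of the 4 groups, with a bar at the group mean. *H19* lay between 9.23 and 10.7 CPM in sgScr and at 0.675 CPM or below in *LA*, while *IGF1R* and *IGF2R* lay at like levels in the 3 groups labelled as carrying the fusion.

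*H19* was lowest in *LA* cells, highest in *LA* cells with sgScr, and intermediate with sg*FOS*. Its counts were 34 and 26 in the control, 11 and 9 in *LA*, 202, 190 and 186 in sgScr, and 60 and 65 in sg*FOS*. The groups did not overlap in count or in CPM, and their order was *LA*, control, sg*FOS*, sgScr. The mean level was 1.87 ± 0.469 CPM in the control (SD, n = 2), 0.589 ± 0.122 in *LA* (n = 2), 9.84 ± 0.752 in sgScr (n = 3) and 4.20 ± 0.183 in sg*FOS* (n = 2).

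In sg*FOS* against sgScr, *H19* fell by 1.22 on the log2 scale (SE 0.155, 95% interval -1.53 to -0.91, adjusted p = 1.02e-07), a level 2.33-fold lower, and ranked 48th from the lowest log2 fold change of 14196. Once corrected, it fell by 1.32 (adjusted p = 3.44e-11). The call was lost when all 9 libraries shared 1 estimate of the spread (adjusted p = 0.592), a fit that called 0 of 14849 genes in this comparison, with 444 genes at an unadjusted p under 0.05. DESeq2 on the libraries of the comparison called 1824 genes.

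The largest *H19* change lay between *LA* cells with and without the scramble guide. *H19* rose by 4.03 log2 units in sgScr against *LA* (SE 0.240, adjusted p = 0.000971), 16.4-fold, the 50th highest log2 fold change of 14521. It rose by 2.41 in sgScr against control (SE 0.243, adjusted p = 0.00450), 5.32-fold. The latter call needed all 3 sgScr libraries: without any 1 of them the adjusted p was 0.0506 to 0.0541, and 3 to 130 genes were called in all.

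Between *LA* and control, the *H19* log2 fold change was -1.67 (SE 0.785, 95% interval -3.29 to -0.05), with an adjusted p of 0.133 and counts of 9 to 34. With the correction it was -1.03 (adjusted p = 0.341). When all 9 libraries were fitted together the adjusted p was 0.00403.

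*H19* lies on the minus strand of chromosome 11 at 2016396 to 2025782 (GRCh37, the build called hg19) and is annotated as a long noncoding RNA.

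*IGF2*, the reciprocal partner of *H19*, was close to undetected. It had 5 and 3 counts in the control, 0 and 4 in *LA*, 1, 0 and 0 in sgScr, and 1 and 6 in sg*FOS*. A count of 0 in a library allows up to 3 counts for counting error alone. With counts this low the groups were not tested against each other, and no fold is given. Of its 5580-base transcript, 20.4% of exonic bases are shared with the readthrough gene *INS-IGF2* on the same strand and 4.66% with *IGF2-AS* on the other, and the strand setting of the counting is not given in the sources used here. *IGF1*, the other ligand of IGF1R, had 5 and 0 counts in the control, 0 and 1 in *LA* and 0 in each of the other libraries.

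The receptors *IGF1R* and *IGF2R* rose in *LA* and in sgScr against control and stood at like levels in the 3 groups labelled with the fusion. No test was made of sg*FOS* against control. *IGF2R* had 671 and 669 counts in the control, 3193 and 3975 in *LA*, 4370, 4172 and 3840 in sgScr, and 3055 and 3084 in sg*FOS*. The control libraries, at 39.5 and 43.4 CPM, lay far below the others, which ranged from 196 to 222 CPM. It rose by 2.31 log2 units in *LA* against control (SE 0.409, adjusted p = 0.00111), 4.96-fold, and by 2.36 in sgScr against control (SE 0.148, adjusted p = 0.00404).

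The *IGF2R* fold change was smaller after the correction, at 1.15 (SE 0.260, adjusted p = 0.0211) and 1.19 (SE 0.124, adjusted p = 0.00276), and stayed past the threshold in both comparisons. Without *LA* replicate 2 the adjusted p in *LA* against control was 0.0527. In sgScr against control it was 0.0523 without sgScr replicate 2 and 0.0541 without sgScr replicate 3.

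*IGF1R* had 2015 and 2122 counts in the control, 4884 and 5465 in *LA*, 6327, 6330 and 5413 in sgScr, and 4339 and 4560 in sg*FOS*. The control stood at 128 ± 3.54 CPM (SD, n = 2) and *LA* at 303 ± 3.90 (n = 2), with no overlap. The rise in *LA* was 1.22 log2 units (SE 0.401, adjusted p = 0.0344), 2.33-fold, and in sgScr against control 1.27 (SE 0.134, adjusted p = 0.00463). Neither was called after the correction, at 0.20 (adjusted p = 0.637) and 0.24 (adjusted p = 0.0741). The *IGF1R* transcript is 12235 bases and that of *IGF2R* 14061 bases, against a median of 3744 bases among genes tested in *LA* against control, and the part of length in these fold changes was not tested beyond this correction. The *IGF1R* call in *LA* against control was also lost without control replicate 1 (adjusted p = 0.0575), without *LA* replicate 1 (0.365) and without *LA* replicate 2 (0.371). That of sgScr against control was lost without any 1 sgScr library (adjusted p from 0.0524 to 0.0548).

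Neither receptor was called between the groups labelled with the fusion. For sg*FOS* against sgScr the 95% interval of the log2 fold change was -0.10 to 0.04 for *IGF1R* and -0.10 to 0.05 for *IGF2R*. For sgScr against *LA* it was -0.19 to 0.18 and -0.24 to 0.22.

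*INSR*, the insulin receptor, was at 10.2 and 16.0 CPM in the control and between 15.9 and 18.9 CPM in the other libraries. Control replicate 1 thus overlapped *LA*. Its log2 fold change was 0.36 in *LA* against control (adjusted p = 0.603) and 0.51 in sgScr against control (adjusted p = 0.104), and turned to -0.54 and -0.44 with the correction (adjusted p = 0.334 and 0.175). Its interval in sg*FOS* against sgScr was -0.19 to 0.17.

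The *IGF2R* promoter is shown because *IGF2R* had the largest rise among the members in *LA* against control. Capitals mark E-boxes (CACGTG), the motif bound by MYC, MITF and USF proteins.
*IGF2R* promoter, chr6:160389864-160390113, plus strand of GRCh37: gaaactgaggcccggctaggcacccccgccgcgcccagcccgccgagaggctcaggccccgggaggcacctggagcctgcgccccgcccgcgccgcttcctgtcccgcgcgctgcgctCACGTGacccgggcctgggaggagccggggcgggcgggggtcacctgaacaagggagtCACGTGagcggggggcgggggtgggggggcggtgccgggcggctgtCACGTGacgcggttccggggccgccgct
The 3 E-boxes begin 132, 74 and 28 bases before the start. Of 35116 windows of the 250 bases before a RefSeq start (GRCh38.p14), 6.34% held an E-box and 0.0797% held 3 or more. The windows were not matched to that of *IGF2R* for GC content. A motif match describes the sequence and is not a measured site, and its part in the rise was not tested. The window of *IGF2BP3* held 2 E-boxes. The motif of AP-1, of which FOS is a subunit, is TGANTCA and was searched on both strands. It was in 1 of the 2 windows of *IGF2BP2* and in 6.57% of all windows. The windows of *IGF1R*, *IGF2R*, *INSR*, *IGF2BP3*, *IGFBP3* and *IGFBP4* held 0 AP-1 matches. *H19* was left out of this search, and no window of *IGF2* or *IGF2BP1* was in the set.

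Of the IGF2 mRNA-binding proteins, *IGF2BP2* rose in sgScr against *LA* and against control, and *IGF2BP3* in sgScr against control alone. *IGF2BP1* was not called in any comparison. *IGF2BP2* had 311 and 300 counts in the control, 276 and 312 in *LA*, 597, 616 and 448 in sgScr, and 335 and 404 in sg*FOS*. At 25.7 to 29.9 CPM, sgScr lay above the control and *LA*, which ranged from 17.0 to 20.1 CPM, and overlapped sg*FOS* at 22.7 and 26.9 CPM. The log2 fold change was 0.68 in sgScr against *LA* (SE 0.115, adjusted p = 0.0129) and 0.58 in sgScr against control (SE 0.157, adjusted p = 0.0306), and the second was 0.30 with the correction (adjusted p = 0.117). Without any 1 of the sgScr libraries the adjusted p was 0.0637 to 0.0878 against *LA* and 0.104 to 0.154 against control.

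Between sg*FOS* and sgScr the *IGF2BP2* log2 fold change was -0.18 (95% interval -0.34 to -0.01, adjusted p = 0.127). It passed the threshold without sgScr replicate 3 (-0.23, adjusted p = 0.0313) and without sg*FOS* replicate 2 (-0.30, adjusted p = 0.0409). Without sg*FOS* replicate 1 it was -0.06.

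*IGF2BP3* had 390 and 854 counts in the control, 1236 and 826 in *LA*, 1628, 1509 and 1325 in sgScr, and 1085 and 1081 in sg*FOS*. The control replicates were at 25.2 and 50.4 CPM, and the higher lay above the lower *LA* library (46.2 CPM). The log2 fold change in sgScr against control was 1.00 (SE 0.310, adjusted p = 0.0445), and 0.69 with the correction (adjusted p = 0.0138). It was not called without any 1 of the sgScr libraries (adjusted p = 0.117 to 0.126) or with scaling by library size alone (1.14, adjusted p = 0.0627). In sgScr against *LA* it was 0.29 (adjusted p = 0.330). Between *LA* and control it was 0.66 (adjusted p = 0.292), with 1.19 without control replicate 2 and 0.21 without control replicate 1. *IGF2BP3* shares 17.8% of its exonic bases with *MALSU1* on the opposite strand.

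*IGF2BP1* ranged from 117 to 214 CPM within the control and from 129 to 198 CPM within *LA*, so that these groups overlapped over most of their range. It was 192 to 204 CPM in sgScr and 201 to 203 CPM in sg*FOS*. Its log2 fold change in sg*FOS* against sgScr was 0.04, with a 95% interval of -0.04 to 0.11. Between *LA* and control it was -0.03, with an interval of -0.90 to 0.84, too wide to place it, and -0.96 with the correction (adjusted p = 0.119). In sgScr against control it was 0.27 (adjusted p = 0.414) and turned to -0.69 with the correction (adjusted p = 0.109). There it was 0.76 without control replicate 1 and -0.11 without control replicate 2. In sgScr against *LA* it was 0.25 (adjusted p = 0.347), with 0.61 without *LA* replicate 1 and -0.03 without *LA* replicate 2. In fits that left 1 library in a group, the lone library was assumed to vary like the others.

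The binding protein *IGFBP3*, the main IGF carrier in serum, was highest in sgScr and next highest in sg*FOS*. It had 3101 and 4127 counts in the control, 3572 and 3784 in *LA*, 9261, 9256 and 7748 in sgScr, and 4879 and 4881 in sg*FOS*. Its level was 222 ± 30.5 CPM in the control (SD, n = 2), 215 ± 5.56 in *LA* (n = 2), 445 ± 4.58 in sgScr (n = 3) and 328 ± 4.19 in sg*FOS* (n = 2). The control and *LA* overlapped, whereas sg*FOS* and sgScr each stood apart from the rest.

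*IGFBP3* fell by 0.44 on the log2 scale in sg*FOS* against sgScr (SE 0.0346, 95% interval -0.51 to -0.37, adjusted p = 1.28e-12), a level 1.35-fold lower. This was the 50th smallest p of 14196. The change was under the threshold of 0.5 that the study's methods set on log2 fold changes, and it was not called in the fit of all 9 libraries. *IGFBP3* rose by 1.03 in sgScr against *LA* (SE 0.0792, adjusted p = 0.00181) and by 1.01 in sgScr against control (SE 0.159, adjusted p = 0.00838). Against control the adjusted p was 0.0583 to 0.0598 without any 1 of the sgScr libraries.

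*IGFBP4* was the most abundant member per length in every group, at 1058 ± 285 CPM per kb in the control, 919 ± 57.8 in *LA*, 686 ± 20.8 in sgScr and 694 ± 22.8 in sg*FOS*. *IGFBP3* came next, from 82.4 CPM per kb in *LA* to 170 in sgScr. In the control *IGF2BP1* followed at 24.3 and 13.2 CPM per kb, above *IGF1R* at 10.6 and 10.2 and *IGF2BP3* at 5.89 and 11.8, of which the last 2 overlapped. In *LA*, *IGF1R* stood at 24.7 ± 0.319, *IGF2BP1* at 18.6 ± 5.60, *IGF2R* at 14.9 ± 1.31 and *IGF2BP3* at 14.3 ± 4.92 CPM per kb. The highest group means of *H19* and *INSR* were 4.26 and 1.94 CPM per kb, both in sgScr.

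*IGFBP4* had 42979 and 32019 counts in the control, 31524 and 37863 in *LA*, 31058, 30811 and 27251 in sgScr, and 23094 and 22457 in sg*FOS*. It fell by 0.44 in sgScr against *LA* (SE 0.0884, adjusted p = 0.0208) and by 0.61 in sgScr against control (SE 0.184, adjusted p = 0.0422). With the correction the first was -0.31 (adjusted p = 0.0957) and the second turned to 0.14 (adjusted p = 0.362). Neither was called without any 1 of the sgScr libraries (adjusted p = 0.110 to 0.139 against *LA* and 0.136 to 0.164 against control). Its interval in sg*FOS* against sgScr was -0.05 to 0.09.

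**Figure D2:**
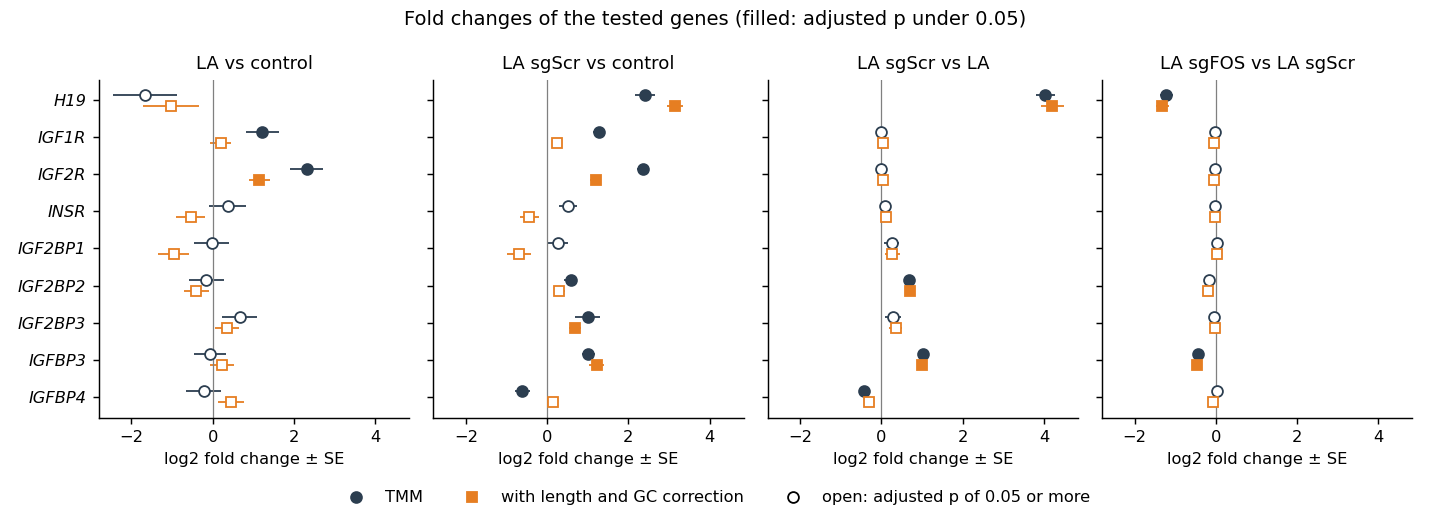
Log2 fold change ± SE (horizontal axis) of the 9 tested members in 4 comparisons, by TMM (circles) and after correction for both length and GC (squares), filled where the adjusted p was under 0.05. The correction moved *IGF1R* in *LA* against control from 1.22 to 0.20 and left *H19* at -1.32 and *IGFBP3* at -0.47 in sg*FOS* against sgScr.

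Other ligands, binding proteins and proteases of the axis were counted from a list of 13 genes. Of 10 tested in *LA* against control, 2 rose and 2 fell, where 9.57% of all genes were called higher and 9.94% lower. *PAPPA*, the protease that cuts IGFBP4, rose by 2.52 log2 units (SE 0.418, adjusted p = 0.000653), from 593 and 794 counts to 3633 and 4927, and by 1.44 with the correction (adjusted p = 0.0109). *IGFBP6*, a binding protein that prefers IGF2, had a log2 fold change of -2.44 (adjusted p = 0.00211), which was -1.16 after the correction (adjusted p = 0.0277), from 2413 and 1001 counts in the control, which stood apart, to 208 and 492. *IGFBP2* was at -1.91 (adjusted p = 0.00288). The median of the list was 0.60, against 0.04 for all genes tested.

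With sg*FOS*, the median of this list against sgScr was 0.29, and that of all genes 0.00. Of 9 tested genes of the list 6 rose and 0 fell, where 12.2% of all genes were called higher and 10.5% lower. The counts were 5 and 0 by DESeq2 and after the correction, and 1 gene was lower at an unadjusted p under 0.05. *IGFBP7*, which binds IGF weakly, rose by 0.97 (SE 0.112, adjusted p = 1.47e-08), from 233, 174 and 207 counts to 306 and 301 in smaller libraries. *IGFBP5* rose by 0.85 (SE 0.199, adjusted p = 0.00149) and *PAPPA* by 0.61 (SE 0.0375, adjusted p = 1.72e-15). *IGFBP3* thus fell where 6 of these genes, 4 of them IGFBPs, rose, although *IGFBP2* (0.18) was at 0.12 after the correction (adjusted p = 0.160). Of the other IGFBPs, *IGFBP1* was lower but not called (-0.30, adjusted p = 0.129) and *IGFBP4* was at 0.02 (adjusted p = 0.735). In the same comparison the leukocyte marker *CD68* rose by 0.65 (adjusted p = 2.89e-10) and the epithelial marker *KRT19* by 0.86 (adjusted p = 7.41e-19), and their part in these changes and in those of *H19* and *IGFBP3* was not tested.

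Against control, 4 of 9 rose and 4 fell in sgScr, where 19.8% of all genes were called higher and 21.7% lower. The calls were led by *PAPPA* (2.18, adjusted p = 0.00412), *IGFBP7* (-1.72, adjusted p = 0.00935) and *IGFBP2* (-1.25, adjusted p = 0.00623). After the correction 4 rose and 1 fell, and *IGFBP7* was no longer called (-1.08, adjusted p = 0.0809). Against *LA*, 2 of 10 rose and 3 fell in sgScr, where 10.6% of all genes were called higher and 12.3% lower. These were led by *IGFALS* (-3.03, adjusted p = 0.0377, at 0 to 27 counts), *IGFBP7* (-2.57, adjusted p = 0.000976) and *IGFBP1* (-1.36, adjusted p = 0.00804).

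Of 13 adaptors and modulators next to the receptors, 11 were tested. In *LA* cells *IRS1*, the substrate that links the receptors to PI3K, rose by 2.02 against control (SE 0.421, adjusted p = 0.00278), and by 1.1 after the correction (adjusted p = 0.0339). *SH2B2*, an adaptor of the insulin receptor, had a log2 fold change of -1.92 (adjusted p = 0.0130), which was -0.81 after the correction (adjusted p = 0.191). With sg*FOS*, *IRS2* fell by 0.34 (SE 0.0417, adjusted p = 6.04e-08) and *GRB10*, an imprinted inhibitor of both receptors, rose by 0.29 (SE 0.0515, adjusted p = 4.22e-05). For sgScr, 4 rose and 1 fell against control, where 19.8% of all genes were called higher and 21.7% lower. The calls were led by *IRS1* (1.99), *SH2B2* (-1.73) and *GIGYF2* (1.32). After the correction 3 rose and 0 fell, where 18% of all genes were called higher and 21.8% lower. *SH2B2* was then at -0.31 (adjusted p = 0.230) and *GIGYF2* at 0.42 (adjusted p = 0.0612). Against *LA*, 2 rose and 1 fell, where 10.6% of all genes were called higher and 12.3% lower. These were led by *IRS2* (-0.80), *SHC1* (0.58) and *GIGYF2* (0.35).

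Of 18 neighbours of *H19* listed along 11p15.5, 9 were tested. In sgScr against *LA*, where *H19* rose by 4.03, 0 of 9 rose by edgeR or DESeq2 where 10.6% of all genes were called higher, 1 was higher at an unadjusted p under 0.05, and *SLC22A18*, a transporter gene, fell by 0.78 (adjusted p = 0.0153). For sgScr against control 7 fell, where 21.7% of all genes did, and 0 rose, and 0 were higher by DESeq2 or at an unadjusted p under 0.05. Those that fell were led by *MRPL23* (-2.41, adjusted p = 0.00968), a mitochondrial ribosomal protein gene 10.6 kb from *H19*, *SLC22A18* (-1.63) and the cell cycle inhibitor *CDKN1C* (-1.56). After the correction *CDKN1C* was no longer called (-0.58, adjusted p = 0.234) and 3 fell, namely *MRPL23* (-1.03), *SLC22A18* (-1.005) and *CD81* (-1.14). With sg*FOS*, where *H19* fell, 4 of 9 rose, by 0.13 to 0.26, but 1 by DESeq2 and 0 after the correction. Against control, *LA* cells had lower *MRPL23* (-2.71, adjusted p = 0.00109) and *CD81* (-1.44, adjusted p = 0.0188). *MRPL23* had 6580 and 2430 counts in the control, against 747 to 1096 in the other libraries.

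Among the 11891 genes whose mean count was 50 or more, the log2 CPM patterns most like *H19* over the 9 libraries were those of *C10orf91* (Pearson r 0.989), *COX15*, *H1F0*, *ARHGAP19* and *ST3GAL5* (0.977). *C10orf91* had 32 and 29 counts in the control, 18 and 20 in *LA*, 144, 118 and 113 in sgScr, and 50 and 64 in sg*FOS*, the same order of groups as *H19*. The correlation leaves out the size of a change. *H19* ranged from 0.503 to 10.7 CPM over the libraries, *COX15* from 87.7 to 102 CPM and *ST3GAL5* from 54.0 to 107 CPM. Those most like *IGF2R*, the member with the widest range after *H19*, were *KIAA0100* (0.999), *MSI2*, *MGA*, *WNK1* and *ADAR* (0.996). These correlations describe 9 libraries in 4 groups, of which 3 share the fusion, and libraries of a group are not independent points.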

How the data were processed

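For 9 poly(A) RNA libraries the authors deposited the whole-number read count of every gene, not normalized. The methods and the submitters' processing notes give stranded paired-end libraries, STAR 2.7.10b on hg19 and DESeq2 1.26.0. How reads were counted (program, annotation, strand) is not given in the sources used here. Counts were tested with edgeR 4.0.16 in R 4.3.3 (TMM, filterByExpr, quasi-likelihood test, two-sided, Benjamini-Hochberg adjustment over all genes tested), on the libraries of each comparison alone. Intervals are 95% from the same fit, and SE is the log2 fold change divided by the root of F. As alternatives, DESeq2 1.42.0 was run, and edgeR was rerun with DESeq2 size factors, with library size alone, without the filter, on all 9 libraries together, with replicate number as block, with a loess offset (span 0.5) on transcript length and GC, with the study's threshold (p under 0.05 and a log2 fold change of at least 0.5), and without each library in turn. The block with crossed numbers was chosen after seeing the data. Patterns were compared on log2 CPM with a prior count of 2.

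The 10 members and all gene lists were chosen with earlier results of these data known. From each list at most the 3 called genes with the largest change per comparison are named. *IGF1*, and *IGFBP1* in sg*FOS* against sgScr, were added after their values were seen. Lengths, positions and untranslated regions came from GENCODE on GRCh37. Of 26364 names, 22494 matched directly, 1337 by an older symbol and 862 by a gene number, and 24693 had a length, as did 98.2% to 98.3% of tested genes. A further 28 names look like dates and were kept but not named. Depth limits cover counting error only, since reads carry no molecular identifiers. The procedure was tested on simulated counts. Figures were drawn with matplotlib 3.10.9 in Python 3.11.15.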

Additional observations from a re-analysis of the deposited data

How the results depend on the processing

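Of 432 refitted log2 fold changes of members, 342 kept their direction and their side of the threshold, 44 lost the call, 10 gained one and 36 changed sign. Of the last, 1 started from a call (*IGFBP4* in sgScr against control, after the length and GC correction) and 1 ended in one (*IGF2BP1* in sgScr against control without control replicate 2, -0.11, adjusted p = 0.0474). Of 52 counts of members called, 36 were within 1.5 times the reported one. The cause of the differences was not tested.

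With the replicate number as a block, 1 member was called in *LA* against control (*IGF1R* was lost, adjusted p = 0.117), 4 in sgScr against control and 2 in sgScr against *LA*. *IGF2BP2* was gained in sg*FOS* against sgScr (adjusted p = 0.0345), where *IGF2R* turned to 0.011. At most 2 pairs share a number in any comparison and their deviations correlated at -0.22 to 0.06, so that the numbers are not shown to pair libraries. The crossed block for *LA* against control, added after seeing the data, called the same count of 2 members, and 3878 genes in all against 1519 with the straight block and 2814 without.

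After the length and GC correction 1 member was called in *LA* against control and 4 in sgScr against control. *INSR* (-0.54), *IGFBP3* (0.22) and *IGFBP4* (0.46) turned in the former, *INSR* (-0.44), *IGF2BP1* (-0.69) and *IGFBP4* (0.14) in the latter, *IGFBP4* (-0.073) in sg*FOS* against sgScr, and *IGF1R* (0.043) and *IGF2R* (0.047) in sgScr against *LA*. Scaling by library size alone moved the median of all genes in *LA* against control from 0.04 to 0.33 and turned *IGF2BP1* (0.29), *IGF2BP2* (0.14), *IGFBP3* (0.20) and *IGFBP4* (0.087). In the same scaling *IGF1R* (1.51) and *IGF2R* (2.61) were called.

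In sgScr against *LA*, where both receptors lay near 0, *IGF1R* turned with DESeq2 (0.017), its size factors (0.0038), no filter (0.027) and all 9 libraries (0.018), and *IGF2R* with DESeq2 (0.0082), no filter (0.018) and all 9 libraries (0.0089). For sg*FOS* against sgScr the fit of all 9 libraries called 0 members, and the study's threshold called 1 (*H19*).

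Leaving out 1 library gave 0 to 3 members called in *LA* against control (0 without *LA* replicate 2, 1 without control replicate 1 or *LA* replicate 1, 3 without control replicate 2), 2 to 3 in sg*FOS* against sgScr, 0 to 9 in sgScr against control (0 or 1 without an sgScr library, 9 without control replicate 1) and 2 to 6 in sgScr against *LA* (2 without any 1 sgScr library, 6 without *LA* replicate 1). The sign changed, over ranges of log2 fold change, for *IGF2BP1* (-0.47 to 0.42), *IGFBP3* (-0.25 to 0.017) and *IGFBP4* (-0.54 to 0.027) in *LA* against control, for *IGF2R* (-0.048 to 0.010), *INSR* (-0.069 to 0.043) and *IGFBP4* (-0.015 to 0.052) in sg*FOS* against sgScr, for *IGF2BP1* (-0.11 to 0.76) in sgScr against control, and for *IGF1R* (-0.012 to 0.014), *IGF2R* (-0.083 to 0.083), *IGF2BP1* (-0.027 to 0.61) and *IGF2BP3* (-0.023 to 0.71) in sgScr against *LA*. A lone library of a group was assumed to vary like the others. *IGF2* is limited by depth, at 0 to 6 counts.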

Other observations

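Imprinted genes outside 11p15.5, counted from a list of 15 of which 8 were tested, moved in both directions. *PEG10*, a retrotransposon-derived paternally expressed gene, was the 1 gene called in *LA* against control, where it rose by 1.34 (adjusted p = 0.0284), or 0.59 after correction for length and GC (adjusted p = 0.200). After that correction 0 rose there and 2 fell, *GNAS* (-1.57, adjusted p = 0.0149) and *SGCE* (-1.08, adjusted p = 0.0249). Of all genes, 9.57% were called higher and 9.94% lower there before the correction, and 5.23% and 7.96% after it. With sg*FOS*, 3 rose and 2 fell against sgScr, where 12.2% of all genes were called higher and 10.5% lower. DESeq2 called 2 higher and 1 lower, and after the correction 3 rose and 1 fell. Those called by edgeR were led by the maternally expressed noncoding RNA *MEG3* (0.46, adjusted p = 0.00106), *PEG10* (-0.34, adjusted p = 4.33e-09) and *GRB10* (0.29). *MEG3* therefore rose where *H19*, another maternally expressed noncoding RNA, fell. For sgScr against control, *PEG10* rose (1.14) and *GNAS* fell (-0.53), and in sgScr against *LA* *MEST* fell (-0.56). Of 6 imprint control factors 4 were tested. By edgeR 0 were called in *LA* against control, with 2 higher at an unadjusted p under 0.05 and 1 by DESeq2. In sgScr against *LA* 0 were called by edgeR or DESeq2, where 10.6% of all genes were called higher and 12.3% lower. There 2 were lower at an unadjusted p under 0.05. *DNMT1*, the maintenance methyltransferase, fell by 0.11 in sg*FOS* against sgScr (adjusted p = 0.0315), while DESeq2 called 0 of the 4 there. For sgScr against control, *ZNF445* (1.28) and *DNMT1* (1.00) rose and *TRIM28* fell (-0.93), and the first of these was 0.01 after the correction (adjusted p = 0.955).

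Of 10 oncofetal and let-7 axis genes 6 were tested. For this list and the next, the shares of all genes called were 9.57% higher and 9.94% lower in *LA* against control. They were 12.2% and 10.5% in sg*FOS* against sgScr, 19.8% and 21.7% in sgScr against control, and 10.6% and 12.3% in sgScr against *LA*. *DICER1*, which cuts microRNA precursors, rose by 1.69 in *LA* against control (adjusted p = 0.00889) and was at 0.50 after the correction (adjusted p = 0.214). With sg*FOS*, *SALL4* (-0.63) and *DICER1* (-0.12, or -0.07 after the correction, adjusted p = 0.323) fell and *HMGA2*, a let-7 target, rose (0.21), while DESeq2 called 0 of the 6. For sgScr against control, *DICER1* (1.55) and *LIN28B*, which blocks let-7 maturation, rose (1.38, adjusted p = 0.0222), and in sgScr against *LA* *HMGA1* (0.81) and *ARID3B* (0.79) rose. *LIN28B* had 63 and 143 counts in the control, 286 and 92 in *LA*, 353, 312 and 296 in sgScr, and 195 and 238 in sg*FOS*, so that the control and *LA* overlapped. All 8 client mRNAs of the IGF2BP proteins were tested. With sg*FOS*, *SRF* (0.39, adjusted p = 2.76e-06) and *CD44* (0.26) rose and *MKI67* (-0.28) and *MYC* (-0.13) fell. Against control, 4 rose in sgScr, where 19.8% of all genes were called higher, led by *MKI67* (1.16), *BTRC* (0.94) and *SRF* (0.65). After the correction *SRF* alone rose (0.75, adjusted p = 0.00446) and 1 fell, where 18% of all genes were called higher and 21.8% lower. *MKI67* was then at -0.02 (adjusted p = 0.951) and *BTRC* at 0.32 (adjusted p = 0.0507). In sgScr against *LA* *SRF* rose (0.57). In *LA* against control 0 of 8 were called by edgeR or DESeq2 and 0 were at an unadjusted p under 0.05. The median there was 0.50 and became 0.02 after the correction, where 0 rose and 1 fell (5.23% and 7.96% of all genes).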
